A study of Mus musculus with 6 samples.

Results

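A set of 10 genes that shape actin in dendritic spines were followed here: Cttn, Cttnbp2, Dbn1, Cfl1, Wasf1, Abi1, Abi2, Ppp1r9b, Enah and Baiap2. They were named by symbol and matched to their Ensembl identifiers, which gave 10 of the 52550 genes in the count table. All 10 passed the filter on low counts, as did 17621 genes in all. The splicing table listed 83 events in 9 of these genes, of 40961 events in all, and none in Cfl1. Hippocampal RNA was compared between 3 control samples and 3 samples labelled L-DL KD. L-DL is the long isoform of the RNA-binding protein hnRNP DL, encoded by Hnrnpdl. By the study's methods both groups were male C57BL/6 J mice injected in both CA1 areas at 8 weeks of age with an adeno-associated virus, carrying control shRNA in the first group and H1-driven tandem L-DL shRNAs in the second. A zsGreen marker under the CamkIIα promoter accompanied the shRNAs, and the control virus was given at a higher titre. The control mice are labelled wild type, and the other group is called a knockdown in one label and a knockout in another. Hippocampal tissue was sequenced, with no sorting of cells described.

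Hnrnpdl itself had 176, 184 and 171 CPM (counts scaled by TMM and by library total) in the control libraries and 217, 150 and 173 CPM in those carrying the L-DL KD label. The groups overlapped, and the log2 fold change was 0.03 with a standard error of 0.12 (adjusted p = 0.898, from the quasi-likelihood test of edgeR, Benjamini-Hochberg). The gene count covers all transcripts, so the long isoform was not measured apart, and the second group is called the KD-labelled libraries below. Depth ranged from 16052529 to 17913064 gene counts per library. Of 12 neuronal marker genes, 10 were lower and 2 (Nefl and Nefm) higher in the KD-labelled libraries, and their summed level was 9610 to 10118 CPM in the controls and 6277 to 6987 CPM in the KD-labelled libraries. All 12 microglial markers were higher, with a summed level of 1949 to 2456 CPM in the controls and 3844 to 5002 CPM in the KD-labelled libraries. The 6 choroid plexus markers ranged from 441 to 4668 CPM in the controls and from 37.0 to 5234 CPM in the KD-labelled libraries, with none called. Among the smaller lists, 1 CA1 pyramidal cell gene was higher and 4 lower of 8, 2 dentate granule cell genes were higher and 3 lower of 8, 2 astrocyte genes were higher and 3 lower of 8, 2 oligodendrocyte genes were higher of 8 and 4 endothelial genes were higher of 8. No marker gene was at 0 in all libraries. In bulk tissue, fewer cells of a type and less RNA per cell cannot be told apart, and the part of these shifts in the results below was not tested.

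Dendritic spines, the small protrusions that carry most excitatory synapses, are built on branched actin filaments. The WAVE complex, which holds WAVE1 (Wasf1) and an Abi protein, activates the Arp2/3 complex to start new branches, cortactin stabilises these branches, Ena/VASP proteins elongate filaments and cofilin severs them. Drebrin and spinophilin bind along filaments, and IRSp53 (Baiap2) couples membrane curvature to actin.

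Of the members, 3 fell in the KD-labelled libraries and none rose. Baiap2 fell furthest, followed by Ppp1r9b and Enah, while the other 7 did not pass the test. An adjusted p under 0.05 was reached by 30.5% of all genes tested, 15.6% higher and 15.0% lower, against which the 3 of 10 lower members are to be read. The median log2 fold change was -0.10 over the 10 members and 0.01 over all genes tested. CPM values of the groups did not overlap for 7 of the 10 members, as for 47.2% of all genes tested.

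**Figure D1:**
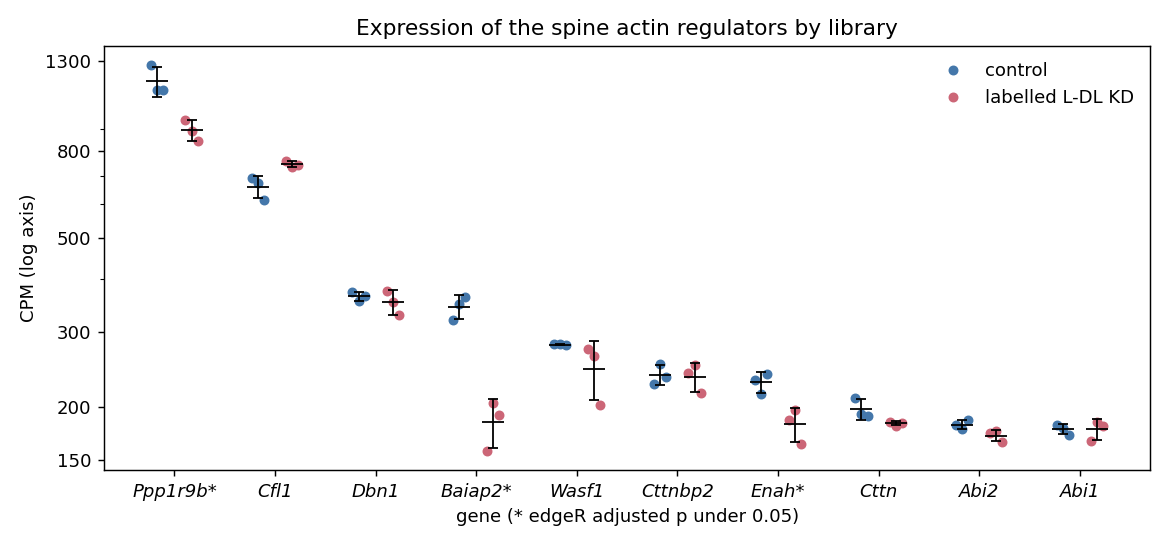
Expression of the 10 genes in each library, in CPM on a log axis; points are libraries, and bars give the mean and SD of 3 libraries. Asterisks mark the 3 genes with an edgeR adjusted p under 0.05, Ppp1r9b, Baiap2 and Enah, each with all KD-labelled libraries below all controls.

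Baiap2 (ENSMUSG00000025372, chr11:119942763-120006782, GRCm38, plus strand) encodes IRSp53, a postsynaptic scaffold that bends membranes and recruits WAVE and Ena/VASP proteins. It stood at 320, 350 and 363 CPM in the control libraries and at 158, 205 and 192 CPM in the KD-labelled libraries. Every KD-labelled library lay well under the lowest control. The level was 345 ± 22.0 CPM (SD, n = 3) against 185 ± 24.2 CPM (SD, n = 3), a log2 fold change of -0.90 with a standard error of 0.10 (edgeR adjusted p = 0.000749). The call held in all 11 alternatives, with log2 fold changes from -0.97 to -0.80.

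Ppp1r9b (ENSMUSG00000038976, chr11:94991035-95006899, plus strand) encodes spinophilin, which binds actin filaments and targets protein phosphatase 1 to spines. Its level was 1273, 1115 and 1111 CPM in the control libraries and 947, 892 and 844 CPM in the KD-labelled libraries. The groups did not overlap, and the first control library was the highest. The log2 fold change was -0.38 with a standard error of 0.08 (edgeR adjusted p = 0.0111). Without control library 1 it was -0.32 (edgeR adjusted p = 0.0564), which ends the call.

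Enah (ENSMUSG00000022995, chr1:181896384-182019990, minus strand) encodes Mena, an Ena/VASP protein that promotes filament elongation. It was measured at 231, 215 and 240 CPM in the control libraries and 186, 197 and 164 CPM in the KD-labelled libraries, again without overlap. The log2 fold change was -0.33 with a standard error of 0.09 (edgeR adjusted p = 0.0225). The call was lost without control library 1 (-0.32, edgeR adjusted p = 0.0747), without control library 3 (-0.29, edgeR adjusted p = 0.0838), and with the replicate number as a block (-0.33, edgeR adjusted p = 0.0507).

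Cfl1, which encodes cofilin and was the only member with a log2 fold change above 0, had 690, 673 and 615 CPM in the control libraries and 758, 734 and 743 CPM in the KD-labelled libraries. Its groups did not overlap, but the log2 fold change of 0.18 did not pass the test (standard error 0.07, edgeR adjusted p = 0.0950). Wasf1, the neuronal WAVE subunit, had 281, 281 and 279 CPM in the controls and 274, 263 and 202 CPM in the KD-labelled libraries. The third KD-labelled library stood far below the other two, and the log2 fold change was -0.19 with a standard error of 0.11 (edgeR adjusted p = 0.243). Without that library the Wasf1 value was -0.06 (edgeR adjusted p = 0.537). Cttn, which encodes cortactin, had 210, 192 and 190 CPM against 185, 181 and 184 CPM, a log2 fold change of -0.11 (standard error 0.07, edgeR adjusted p = 0.247). Abi2, an Abl interactor of the WAVE complex, had 182, 177 and 186 CPM against 173, 175 and 165 CPM, a log2 fold change of -0.08 (standard error 0.06, edgeR adjusted p = 0.337). None of these 4 genes passed the test. The groups of the remaining 3 overlapped. Dbn1, which encodes drebrin, ranged from 355 to 373 CPM in the controls and from 329 to 376 CPM in the KD-labelled libraries. Cttnbp2, which binds cortactin and microtubules in dendrites, ranged from 227 to 253 and from 215 to 251 CPM. Abi1, the paralog of Abi2, ranged from 172 to 182 and from 166 to 185 CPM.

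Levels per length, as RPKM (CPM per kilobase of annotated exon), placed Cfl1 (232 ± 13.9, SD, n = 3) and Ppp1r9b (229 ± 18.2) at the top in the controls, and this pair differed by less than their SDs. Wasf1 (98.3 ± 0.37), Dbn1 (80.7 ± 2.03), Baiap2 (69.0 ± 4.40), Cttn (47.1 ± 2.62), Abi1 (44.0 ± 1.23), Cttnbp2 (27.0 ± 1.52), Abi2 (21.3 ± 0.52) and Enah (10.7 ± 0.59) followed, each neighbour differing by more than either SD. In the KD-labelled libraries Baiap2 had 37.0 ± 4.85 RPKM, below Cttn (43.7 ± 0.50) and Abi1 (44.0 ± 2.41). The 3 genes with the profile over the 6 libraries closest to the mean of the 10 members were Inip, Tbc1d12 and Cldnd1, at Euclidean distances of 0.0228, 0.0366 and 0.0382 in centred log2 CPM.

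The 85 other genes of the actin machinery on the list moved in both directions. Of the 83 tested (Pdxp and Mtss2 were not matched by symbol to a row of the count table), 29 rose and 17 fell, beside the 15.6% and 15.0% of all genes, and their median log2 fold change was 0.12. Among the WAVE complex and its relatives, 6 rose and 5 fell of 14. Wasf2, the widely expressed WAVE paralog, rose from 56.2 ± 2.08 to 106 ± 9.58 CPM (SD, n = 3), a log2 fold change of 0.92 (edgeR adjusted p = 0.000284). Wasf3, a further paralog found in brain, fell from 179 ± 5.90 to 114 ± 4.16 CPM, a log2 fold change of -0.65 (edgeR adjusted p = 0.000391). With the Wasf1 value above, the 3 WAVE paralogs had log2 fold changes of different size and sign. The Sra1 subunit Cyfip1 rose (0.38) and the Nap1 subunit Nckap1 fell (-0.42). The Cyfip1 paralog Cyfip2 (-0.15) and the small subunit Brk1 (0.04) did not pass the test, while the haematopoietic Nckap1l rose (1.17). Abi3, the third Abi paralog, rose by 1.62 on the log2 scale from 1.22 ± 0.87 to 3.77 ± 0.72 CPM (edgeR adjusted p = 0.0338), a low level of 7 to 77 counts per library. Microglial markers rose beside Nckap1l and Abi3, which are known to be expressed in microglia, and the share of that in these values was not tested.

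Of the 10 Arp2/3 genes 1 rose and 2 fell, among them a rise of Arpc1b (0.96) and a fall of Actr3b, a brain Arp3 paralog (-0.83). Ena/VASP proteins, profilins and formins had 2 rises and 2 falls in 9 genes, among them a rise of Vasp (0.72), while Evl (0.20) did not pass. Of 16 genes of cofilin regulation and capping 5 rose and 3 fell. The filament-severing Gsn rose (1.13), as did the cofilin paralog Cfl2 (0.41), and Dstn (0.20) did not pass. Side-binding and scaffold genes gave 9 rises and 5 falls in 24. The largest falls there were those of the actinins Actn2 (-1.42), a cross-linker of the postsynaptic density, and Actn1 (-0.67), whereas the spinophilin paralog Ppp1r9a (-0.25) did not pass.

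**Figure D2:**
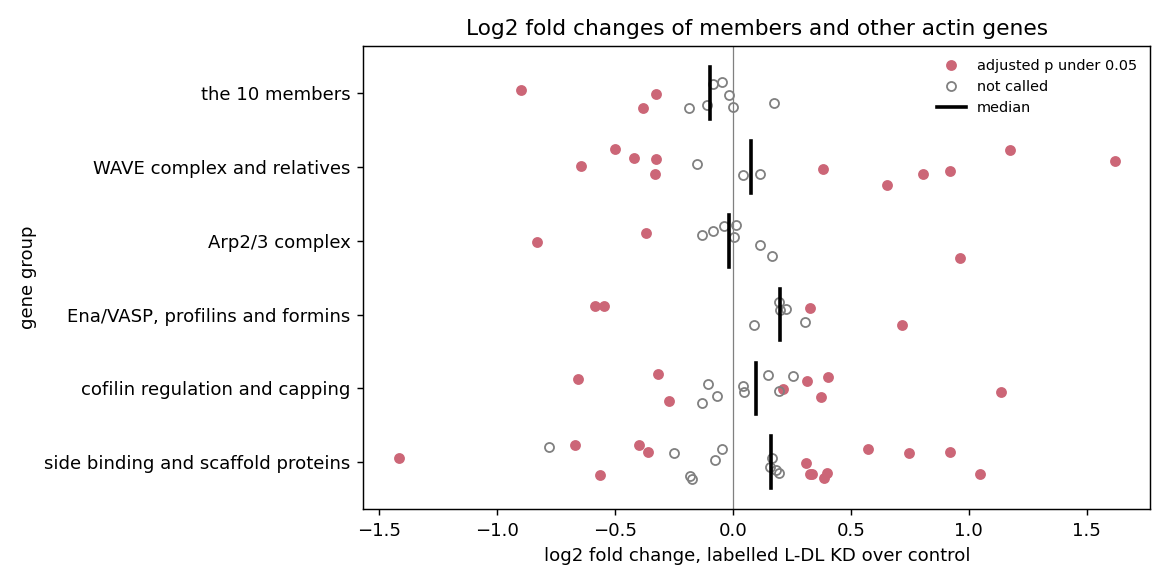
Log2 fold changes of the 10 members and of 5 groups of other actin genes, KD-labelled over control. Each point is a gene, filled where the edgeR adjusted p was under 0.05, and the black bar is the median, which is -0.10 for the members and 0.16 for side-binding and scaffold genes.

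Splicing was compared by the percent spliced in (PSI, here as a fraction from 0 to 1), which is the length-scaled junction count of the inclusion form over that of both forms. The 83 member events were 59 skipped exons (SE), 11 mutually exclusive exon pairs, 7 alternative 3′ splice sites (A3SS), 1 alternative 5′ splice site and 5 retained introns (RI), on 74 segments. Enough junction counts for the test were present for 52, and 31 were not tested, including both events of Ppp1r9b, of which the skipped form had almost no reads. Only 1 of the 52 passed an adjusted p under 0.05, beside 0.255% of all 18829 events tested. By limma on the log2 ratio of the forms, 9 of the 52 passed, beside 686 of all events, and the 9 include this one. At an unadjusted p under 0.001 there were 4 (0.977% of all events), and at an unadjusted p under 0.05 there were 17 in 8 genes, or 32.7% of 52 beside 13.3% of all events. PSI was lower in the KD-labelled libraries in 12 of the 17 and higher in 5. Among the 2496 events of all genes with such a p, it was lower in 1562 and higher in 934 (8.30% and 4.96% of all 18829 tested). The groups did not overlap for 20 of 52, or 38.5% beside 18.4%. Overlapping events share reads, so the 17 are not separate observations. The median absolute PSI difference was 0.0254 over the 52 events and 0.0297 over all events tested. The 32 tested exon skipping events of the members lie on 29 distinct exons, of which 22 (75.9%) had a length that is a multiple of 3, and so did 4636 of all 9859 distinct exons tested (47.0%). The smallest p of the exact permutation test of 3 against 3 libraries is 0.1, which is reached wherever PSI values do not overlap. The splicing table does not number its libraries, so its values are given in the table's order.

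**Figure D3:**
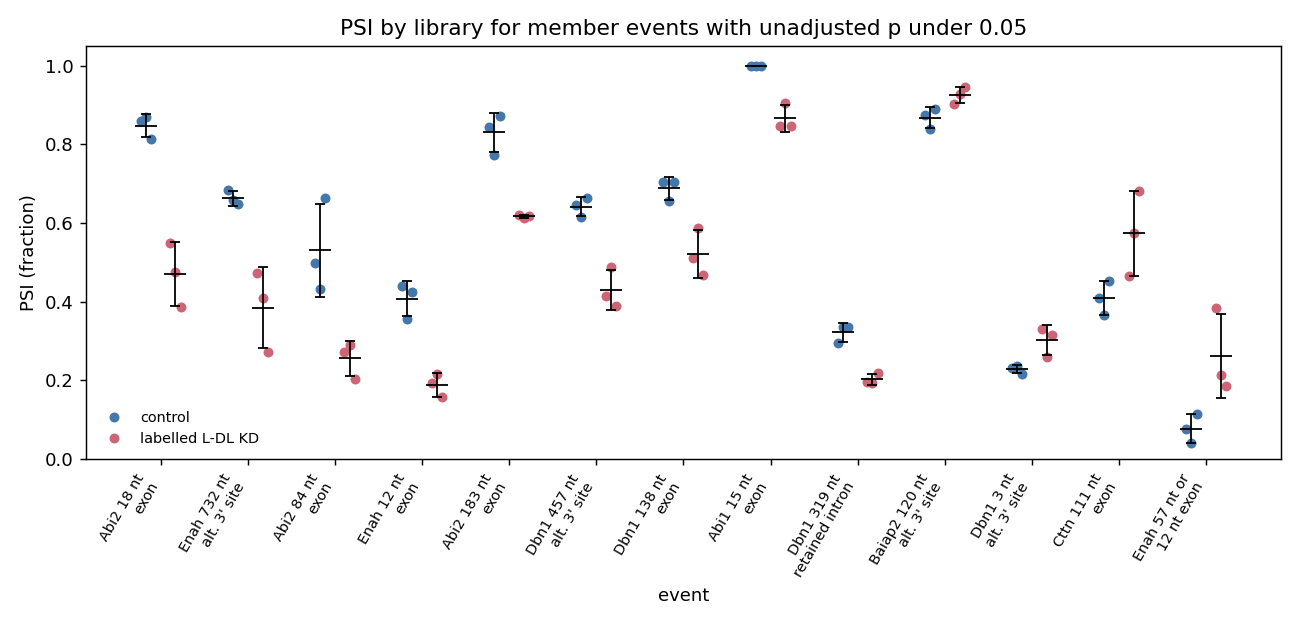
PSI of the 13 member events with unadjusted edgeR p under 0.05 and a mean PSI between 0.05 and 0.95, one point per library, with mean and SD of 3 libraries. Events are ordered by the difference, from the Abi2 18 nt exon (-0.377) to the Enah exon pair (0.184), where PSI is the share of the 57 nt exon.

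Abi2 held the called event. Its alternative exons are printed as they stand in annotated GENCODE transcripts (GRCm38, plus strand), with the exon in capitals and 12 bases of the neighbouring exons in lower case, because the 18 nt exon is the called event and the 183 nt exon had an unadjusted p under 0.001. The 18 nt exon lies at chr1:60438942-60438959 and is exon 2 of 8 of Abi2-202, and the 183 nt exon lies at chr1:60450071-60450253 and is exon 5 of 8. Both are coding and keep the frame, adding 6 and 61 codons.
Abi2 18 nt exon: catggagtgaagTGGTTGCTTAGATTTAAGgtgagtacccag
Abi2 183 nt exon: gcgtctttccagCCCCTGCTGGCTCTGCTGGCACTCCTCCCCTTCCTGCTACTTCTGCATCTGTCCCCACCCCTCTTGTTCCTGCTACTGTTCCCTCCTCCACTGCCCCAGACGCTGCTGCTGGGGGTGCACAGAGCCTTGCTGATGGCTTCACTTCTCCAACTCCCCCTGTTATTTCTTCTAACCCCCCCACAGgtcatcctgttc

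The 18 nt exon had PSI values of 0.858, 0.870 and 0.814 in the control libraries and 0.549, 0.477 and 0.386 in the KD-labelled libraries. Inclusion was thus the main form in every control, while skipping prevailed in 2 of the 3 KD-labelled libraries, without overlap. PSI fell by 0.377, from 0.847 ± 0.0295 to 0.471 ± 0.0814 (SD, n = 3; edgeR adjusted p = 0.0378; exact permutation p = 0.1). Skipping reads numbered 16, 14 and 15 in the controls and 62, 69 and 67 in the KD-labelled libraries and inclusion reads 108, 104 and 73 against 84, 70 and 47. The edgeR adjusted p was 0.139 to 0.201 without any 1 of the control libraries, 0.137 without the second and 0.167 without the third KD-labelled library, so each of these 5 ends the call, and 0.0440 without the first KD-labelled library. By limma the adjusted p was 3.55e-05.

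The 183 nt exon had PSI values of 0.845, 0.774 and 0.872 in the controls and 0.620, 0.612 and 0.618 in the KD-labelled libraries. The KD-labelled libraries were close to each other and below all controls. The difference was -0.214 (edgeR unadjusted p = 0.000694, adjusted p = 0.0889), and limma gave an adjusted p of 0.000966. A shorter 84 nt version of this exon (chr1:60450170-60450253) is also listed, with PSI of 0.530 ± 0.119 in the controls and 0.256 ± 0.0454 in the KD-labelled libraries (edgeR adjusted p = 0.206, limma adjusted p = 0.0158). A separate 3′ splice site event found only 1 read in all libraries at the start of that version, so its inclusion reads come from the end that it shares with the 183 nt exon. A 147 nt coding exon of Abi2 (chr1:60447260-60447406) moved the other way, from PSI 0.298 ± 0.0410 in the controls to 0.423 ± 0.0153 in the KD-labelled libraries (SD, n = 3). Its groups did not overlap (edgeR unadjusted p = 0.0514, adjusted p = 0.381), and it was added after its values were seen.

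In Abi1 a 15 nt exon (chr2:22963214-22963228, minus strand) and a 177 nt exon (chr2:22971083-22971259) are each listed with more than one choice of flanking exons. One junction skips both exons at once, with 0, 0 and 0 reads in the controls and 3, 2 and 4 in the KD-labelled libraries. With these flanks PSI was 1 in all controls and 0.846, 0.906 and 0.846 for the 15 nt exon in the KD-labelled libraries, on 21 to 28 junction reads, and 0.978 to 0.989 for the 177 nt exon. Neither passed (edgeR adjusted p = 0.293 and 0.234), and both rest on 9 reads. With its other, better covered flanks the 15 nt exon had PSI of 0.965 ± 0.0176 in the controls and 0.956 ± 0.0168 in the KD-labelled libraries (SD, n = 3), with overlapping groups (edgeR adjusted p = 0.849). The best-covered pair of exons in Abi1 had PSI of 0.508 ± 0.0341 and 0.537 ± 0.0331 (SD, n = 3), with overlapping groups. Wasf1 showed a like pattern in its 135 nt coding exon 3 (chr10:40926484-40926618, plus strand). Skipping reads were 0, 0 and 0 in the controls and 4, 1 and 12 in the KD-labelled libraries, against 542 to 873 inclusion reads, so PSI ranged from 0.960 to 0.998 in the KD-labelled libraries (edgeR adjusted p = 0.262). With another upstream exon the same exon was skipped by 2 reads in 1 control and by none in the KD-labelled libraries, which was too few for the test. The best-covered exon pair of Wasf1 had PSI of 0.312 ± 0.0316 in the controls and 0.301 ± 0.0197 in the KD-labelled libraries, with overlapping groups.

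Dbn1 was the member in which all 4 tested events had an unadjusted p under 0.05, and 3 of these describe the same stretch. Its 138 nt exon (exon 11 of 15 of Dbn1-201, chr13:55476636-55476773, minus strand, 46 codons) gives the drebrin A form that is characteristic of adult neurons, while drebrin E lacks it. The exon is printed in capitals, 5′ to 3′ on the transcript, with 12 bases of its neighbours.
Dbn1 138 nt exon: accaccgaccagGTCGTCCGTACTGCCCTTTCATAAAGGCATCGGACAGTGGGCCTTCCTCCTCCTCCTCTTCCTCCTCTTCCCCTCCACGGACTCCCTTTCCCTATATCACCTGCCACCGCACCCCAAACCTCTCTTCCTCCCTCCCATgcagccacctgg

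PSI of this exon was 0.704, 0.655 and 0.705 in the controls and 0.511, 0.587 and 0.468 in the KD-labelled libraries. All controls were above all KD-labelled libraries, and the difference was -0.166 (edgeR unadjusted p = 0.00160, adjusted p = 0.124). Its skipping reads, 218, 266 and 185 against 507, 356 and 478, also make up the skipping side of the 457 nt A3SS event, which joins the exon to the intron after it (difference -0.212, edgeR adjusted p = 0.0595). The 319 nt intron that follows the exon was retained at PSI 0.295, 0.337 and 0.335 in the controls and 0.197, 0.192 and 0.219 in the KD-labelled libraries (edgeR adjusted p = 0.134). limma gave adjusted p values of 4.64e-05 for the exon, 1.08e-06 for the A3SS event and 0.000209 for the intron. The fourth event, a 3 nt shift of a 3′ splice site (chr13:55474559-55474561), had PSI of 0.228 ± 0.00984 in the controls and 0.302 ± 0.0378 in the KD-labelled libraries (edgeR adjusted p = 0.377).

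Splitting the length-scaled counts into 3 forms showed where the difference in Dbn1 lay, a split chosen after the events had been seen. Exon-skipped reads made up 27.9% ± 3.15 in the controls and 45.4% ± 7.71 in the KD-labelled libraries (SD, n = 3). Reads with the exon and the next intron retained made up 21.3%, 23.2% and 25.2% in the controls and 10.4%, 12.1% and 10.5% in the KD-labelled libraries. Both sets were without overlap (exact permutation p = 0.1, the smallest possible). The spliced form with the exon made up 48.9% ± 2.76 and 43.6% ± 6.82, and its groups overlapped.

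In Cttn the groups lay apart at the repeat exons 10 and 11, but no event passed the adjusted threshold by edgeR. Cortactin binds actin filaments through tandem repeats, and exons 9, 10 and 11 are each 111 nt or 37 codons long. They are printed because their sequences resemble each other, with 62.2% identity between exons 9 and 10, 60.4% between 9 and 11 and 63.1% between 10 and 11. Capitals mark the exon and lower case the 12 neighbouring bases, on the minus strand at chr7:144452548-144452658, chr7:144452027-144452137 and chr7:144450978-144451088.
Cttn exon 9: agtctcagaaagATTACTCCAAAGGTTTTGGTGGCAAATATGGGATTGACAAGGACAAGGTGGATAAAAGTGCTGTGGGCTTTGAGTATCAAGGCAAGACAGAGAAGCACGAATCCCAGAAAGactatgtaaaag
Cttn exon 10: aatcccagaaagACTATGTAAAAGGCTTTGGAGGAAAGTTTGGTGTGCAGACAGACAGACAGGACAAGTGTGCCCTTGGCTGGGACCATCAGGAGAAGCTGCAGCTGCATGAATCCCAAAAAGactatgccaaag
Cttn exon 11: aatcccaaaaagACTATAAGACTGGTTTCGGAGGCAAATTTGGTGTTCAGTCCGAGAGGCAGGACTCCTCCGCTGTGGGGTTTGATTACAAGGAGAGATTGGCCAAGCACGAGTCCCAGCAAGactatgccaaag

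Exon 10 had PSI of 0.408, 0.367 and 0.453 in the controls and 0.465, 0.575 and 0.681 in the KD-labelled libraries. The groups were apart by a small gap, with the first KD-labelled library close to the highest control. The difference was 0.164 (edgeR unadjusted p = 0.0210, adjusted p = 0.299; limma adjusted p = 0.0230). Split into 3 forms, a split chosen after the events were seen, the form with exon 11 skipped and exon 10 kept made up 33.9%, 31.7% and 38.0% in the controls and 41.6%, 54.4% and 61.3% in the KD-labelled libraries. The form without either exon made up 57.7%, 60.6% and 50.6% against 50.3%, 39.2% and 30.6%. Both were without overlap (exact permutation p = 0.1). These shares reuse junction reads of the exon 10 and exon 11 events, and 1 share rises as another falls, so they are not separate observations. Transcripts with both exons made up 9.16% ± 1.94 and 7.50% ± 1.03 (SD, n = 3), with overlapping groups.

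In Enah the groups lay apart at 2 places, a 12 nt exon and a 732 nt extension, but neither passed the adjusted threshold by edgeR. Mena isoforms with added segments are known from brain. The 12 nt exon (chr1:181931174-181931185, exon 4 of 15 of Enah-204) and the 57 nt exon (chr1:181935660-181935716, exon 4 of 15 of Enah-201) are alternatives between the same neighbours, as the lower-case bases show, both on the minus strand and in frame.
Enah 12 nt exon: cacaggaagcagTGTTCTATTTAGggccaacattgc
Enah 57 nt exon: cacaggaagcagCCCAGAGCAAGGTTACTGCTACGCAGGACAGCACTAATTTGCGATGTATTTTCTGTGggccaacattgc

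PSI of the 12 nt exon was 0.440, 0.357 and 0.425 in the controls and 0.193, 0.215 and 0.157 in the KD-labelled libraries. Every KD-labelled library was below every control, a difference of -0.219 (edgeR unadjusted p = 0.00492, adjusted p = 0.178; limma adjusted p = 0.0209). As shares of 3 forms, chosen after the events were seen, the 12 nt form made up 39.3% ± 3.74 and 17.6% ± 2.62, and the form without either exon 57.3% ± 5.23 and 75.8% ± 4.89 (SD, n = 3), both without overlap (exact permutation p = 0.1). The 57 nt form, with 2 to 16 reads per library, made up 3.40% ± 1.88 and 6.58% ± 3.75 with overlapping groups. The exon pair event repeats these counts, with the 57 nt exon at PSI 0.0772 ± 0.0373 and 0.262 ± 0.107 (edgeR adjusted p = 0.309).

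The 732 nt coding extension of an Enah exon (chr1:181921769-181922500, 244 codons) had PSI of 0.684, 0.657 and 0.648 in the controls and 0.472, 0.410 and 0.271 in the KD-labelled libraries. The third KD-labelled library was the lowest, and the groups lay apart by a wide gap. The difference was -0.279 (edgeR unadjusted p = 0.000301, adjusted p = 0.0667), and limma gave an adjusted p of 1.96e-05. With 1 library left out, the edgeR adjusted p ranged from 0.0408, without the first KD-labelled library, to 0.252.

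**Figure D4:**
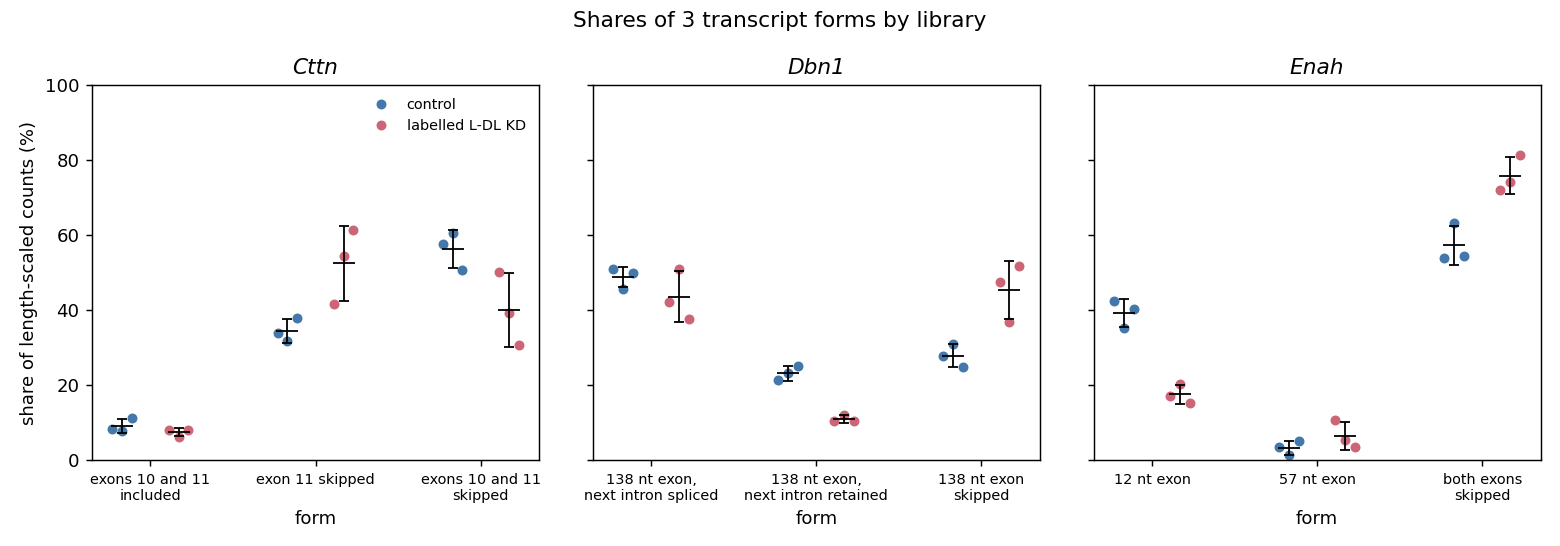
Shares of 3 transcript forms of Cttn, Dbn1 and Enah in each library, in percent of length-scaled counts, with mean and SD of 3 libraries per group. Groups lie apart for the Cttn forms lacking exon 11 and both exons, for exon-skipped and intron-retained Dbn1 and for the Enah forms with the 12 nt exon and without either exon.

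No event of Baiap2 or Cttnbp2 passed the adjusted threshold. A 120 nt A3SS extension of Baiap2 (chr11:119996889-119997008) was included at 0.876, 0.838 and 0.889 in the controls and 0.903, 0.928 and 0.945 in the KD-labelled libraries, a small gap (edgeR unadjusted p = 0.0164, adjusted p = 0.276). Its 202 nt exon 10 (chr11:119997489-119997690) had PSI from 0.989 to 0.996 in the controls and 0.953 to 0.988 in the KD-labelled libraries, with 2 to 14 skipping reads (edgeR adjusted p = 0.352). The 99 nt exon 22 of Cttnbp2 (chr6:18374524-18374622) was skipped by 0, 2 and 4 reads in the controls and by none in the KD-labelled libraries (edgeR adjusted p = 0.358), and the groups overlapped. The best-covered exon pair of Cttnbp2 had PSI of 0.511 ± 0.0315 in the controls and 0.539 ± 0.0251 in the KD-labelled libraries, with overlapping groups. An alternative 5′ splice site of Cttnbp2 (163 nt, chosen after its values were seen) had PSI of 0.193, 0.252 and 0.212 in the controls and 0.349, 0.270 and 0.377 in the KD-labelled libraries, without overlap (difference 0.113, edgeR unadjusted p = 0.0993, adjusted p = 0.476).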

How the data were processed

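The material was hippocampal RNA of 3 control and 3 L-DL KD samples. The authors deposited raw gene counts per Ensembl gene and, from rMATS, junction counts of the inclusion and skipping forms with effective lengths. The submitters' processing notes name HISAT2 (version 2.1.0), HTSeq (version 0.6.1), Bowtie (version 1.1.2) and the build mm10, with no role for each. Strand use in counting was not given in the sources used here. The rMATS columns holding p-values, FDR, PSI and the PSI difference are the authors' own comparison and were not used. In the splicing table, sample 1 was taken as L-DL KD and sample 2 as control from the definition of the PSI difference in the study's methods. Its libraries are not numbered.

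The quasi-likelihood test of edgeR (version 4.0.16) was run on TMM-scaled gene counts, keeping genes that reached 10 counts in 3 or more libraries. The adjustment was Benjamini-Hochberg over all genes. Junction counts were tested with edgeR where an event averaged 20 or more per library and 1 or more of each form, with an effect for each library. PSI was recomputed from length-scaled counts. Gene length for RPKM was the union of annotated exons. Sequences and exon annotation came from GENCODE on GRCm38. Both models were tested on simulated data. Alternatives were DESeq2 (version 1.42.0), limma (version 3.58.1, pseudocount 0.5), scaling by library size, other filters, 1 event per segment, PSI without lengths, leaving out each library in turn and blocking on replicate number. In limma the variance followed a trend on counting precision, which was added after the data had been seen, because the fit without it failed when tested on simulated data.

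The members, gene lists and tests were chosen with earlier results of these data known. Named were all 10 members, Hnrnpdl, direct partners, the 3 largest rises and 3 largest falls among called pathway genes, each member event at an unadjusted p under 0.05, the best-covered event of each member with a mean PSI between 0.05 and 0.95, and the 3 genes with the closest profile. Arpc1b and a few further events are named outside these rules. Splits into 3 forms were chosen after values were seen and reuse reads of the listed events, so their shares are not separate observations. Replicates are separate samples by their labels, and p-values measure the spread between them. One further group of the pathway list is not reported here on its own, though its genes are in the list's totals.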

Additional observations from a re-analysis of the deposited data

How the results depend on the processing

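The 3 called members remained 3 with DESeq2, with scaling by library size and with both other count filters, and were 1 to 3 with 1 library left out. In the pathway list, 22 to 32 genes were higher and 13 to 18 lower with 1 library left out. Of the neuronal markers 7 to 10 were lower, of the microglial markers 11 or 12 were higher, and of the other marker lists 16 to 33 genes were called, 33 without the first L-DL KD library. Same-numbered libraries did not deviate together (correlations of 0.07, 0.18 and -0.16), so they share only a number. With the replicate block 2 members were called, Enah having an adjusted p of 0.0507 (edgeR), and 4635 of all genes instead of 5379. No block was run for splicing, whose libraries carry no numbers.

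The number of member events called was the least stable value. It was 1 by edgeR, 9 by limma with the variance trend and 0 by limma without it. The trend was added after the data had been seen, because the fit without it failed when tested on simulated data. By edgeR the number was also 4 at an unadjusted p under 0.001, 17 at an unadjusted p under 0.05, and 0 to 2 with 1 library left out. Why edgeR and limma differ was not tested. Over all events edgeR called 48 and limma 686. Values near 0 changed sign without being called. For Cttnbp2 the log2 fold change was 0.015 with library-size scaling and -0.055 to 0.048 with 1 library left out. For Dbn1 it was -0.091 to 0.0046 with 1 library left out. For Abi1 it was 0.031 with library-size scaling, 4.1e-05 with no count filter, 0.00030 with at least 50 counts in every library, and -0.025 to 0.046 with 1 library left out. For the Wasf1 exon pair, the log2 ratio was -0.19 to 0.022 and the PSI difference -0.028 to 0.0026 with 1 library left out. Of the values for single members and events under all alternatives, 427 kept their direction and their side of the threshold, 9 newly passed it, 10 no longer passed it and 3 PSI differences moved by more than the spread between libraries.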
